A study of Mus musculus with 18 samples.

Results

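The regions that carry the histone variant H2A.Z in primary mouse dermal fibroblasts were set against the regions that carry macroH2A2 in immortalized mouse dermal fibroblasts after 5 days of induction. The libraries were chosen by their labels, and they are 2 of the 18 samples of the series, 1 for each variant. On the 19 autosomes the deposited lists held 43669 H2A.Z regions and 47942 macroH2A2 regions. The question was which gene starts and gene bodies lie in regions of H2A.Z, of macroH2A2, of both or of neither. With 1 library a variant there is no replicate check, so no test was made. All intervals given below are exact Clopper-Pearson 95% intervals over genes or regions, which cover counting error only.

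The H2A.Z library came from wild-type dermal fibroblasts of female newborn 129/S6 mice, used at passage 0 to 1 without treatment. Its chromatin was cut with micrococcal nuclease without crosslinking and precipitated with an antibody to H2A.Z. The macroH2A2 library came from male newborn 129/S6 dermal fibroblasts, immortalized with SV40, at passages 20 to 30. These cells lack both macroH2A genes and carry a macroH2A2-GFP transgene that doxycycline induces. They received 0.5 ug/ml doxycycline for 5 days, and the tagged histone was pulled down through GFP. Lists of the same line without doxycycline (0h) and after 6h and 24h of it, also 1 library each, were used beside the 5 day list. RNA levels came from 3 libraries of the same line at 0h. Sex, immortalization, genotype, passage and the way of pulling down all differed between the H2A.Z and the macroH2A2 library, and their parts cannot be told apart.

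H2A.Z replaces the core histone H2A at many promoters and enhancers, where exchange complexes such as SRCAP and EP400 put it in. It is known for the nucleosomes that flank the start sites of active genes and of many poised developmental genes. MacroH2A variants carry a large globular macro domain beyond the histone fold. They are known for broad domains over silent chromatin, the inactive X chromosome among them, and in fibroblasts also for flanking some regulated genes.

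H2A.Z regions covered 191.7 Mb, 7.79% of the autosomal span, with a median width of 4000 bases. MacroH2A2 regions at 5 days covered 348 Mb, 14.2% of the span, with a median width of 5000 bases. Of the macroH2A2 bases, 51.0% also lay in regions of the 0h list. A macroH2A2 region at 5 days is not in itself one gained with doxycycline, and 0h values are given beside the main results. Whether 0h regions hold tagged histone made without doxycycline or background of the pull-down was not tested. They are called macroH2A2 here after the label of the library. Read depth of these libraries is unknown because the lists hold no reads. The caller joined windows across gaps of up to 800 bases, so a narrower dip within a region is not visible. Both lists describe populations of cells, in which the 2 variants may lie in different cells or on different alleles. Coverage of macroH2A2 was uneven between chromosomes, with 24.7% of chromosome 8, 32.5% of chromosome 15 and 26.7% of chromosome 17 against a median of 14.8%. The same chromosomes already had 16.99%, 26.2% and 22.3% at 0h.

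A start was counted as carrying a variant where its regions covered 50% or more of the 1001 bases centred on it. The 150 bases before the start of 8 genes are printed here for 2 named genes of each of the 4 resulting classes. The genes were picked for high body coverage, RNA or length, so their promoters are not typical of their class. They come from RefSeq (GRCm38.p6), 5′ to 3′ along the gene, with each CG dinucleotide in capitals. Hsf2bp, a meiotic recombination factor, and Crispld2, a secreted protein of mesenchyme, had both variants at the start. Their stretches lie at chr17:32034509-32034658 on the minus strand and at chr8:119992288-119992437 on the plus strand.
Hsf2bp: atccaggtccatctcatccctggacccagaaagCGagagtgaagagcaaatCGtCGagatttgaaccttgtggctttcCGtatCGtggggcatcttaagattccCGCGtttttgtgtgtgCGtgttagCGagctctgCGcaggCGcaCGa
Crispld2: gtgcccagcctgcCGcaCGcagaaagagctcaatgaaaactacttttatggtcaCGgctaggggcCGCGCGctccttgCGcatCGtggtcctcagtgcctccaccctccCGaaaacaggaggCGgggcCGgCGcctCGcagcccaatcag
Eef2, the translation elongation factor, and Tubb5, a beta tubulin, had H2A.Z alone. Their stretches lie at chr10:81176481-81176630 on the plus strand and at chr17:35838302-35838451 on the minus strand.
Eef2: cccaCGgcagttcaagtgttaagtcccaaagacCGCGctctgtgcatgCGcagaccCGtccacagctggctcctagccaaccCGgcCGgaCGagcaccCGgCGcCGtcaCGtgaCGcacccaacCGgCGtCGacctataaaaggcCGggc
Tubb5: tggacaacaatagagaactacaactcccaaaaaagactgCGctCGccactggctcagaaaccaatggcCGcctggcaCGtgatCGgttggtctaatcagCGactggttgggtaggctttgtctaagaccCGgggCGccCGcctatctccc
Cubn, the endocytic receptor cubilin, and Itgb6, an epithelial integrin subunit, had macroH2A2 alone. Their stretches lie at chr2:13491877-13492026 on the minus strand and at chr2:60722604-60722753 on the minus strand.
Cubn: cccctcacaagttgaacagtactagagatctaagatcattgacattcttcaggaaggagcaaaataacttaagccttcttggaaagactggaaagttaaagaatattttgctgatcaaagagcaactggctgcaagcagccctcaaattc
Itgb6: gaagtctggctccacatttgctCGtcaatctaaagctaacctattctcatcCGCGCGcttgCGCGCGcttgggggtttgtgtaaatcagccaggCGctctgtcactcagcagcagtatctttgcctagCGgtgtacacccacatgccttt
Eef1a1, another elongation factor, and Vim, the intermediate filament vimentin, had neither. Their stretches lie at chr9:78481725-78481874 on the minus strand and at chr2:13574161-13574310 on the plus strand.
Eef1a1: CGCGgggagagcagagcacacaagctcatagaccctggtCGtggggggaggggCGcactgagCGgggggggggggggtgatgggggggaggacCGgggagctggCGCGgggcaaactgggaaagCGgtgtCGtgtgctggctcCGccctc
Vim: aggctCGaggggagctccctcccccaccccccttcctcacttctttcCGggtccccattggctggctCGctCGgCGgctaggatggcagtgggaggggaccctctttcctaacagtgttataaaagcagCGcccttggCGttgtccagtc
The stretches hold 12 CG dinucleotides for Hsf2bp, 13 for Crispld2, 17 for Eef2, 9 for Tubb5, 0 for Cubn, 9 for Itgb6, 11 for Eef1a1 and 7 for Vim. All printed stretches with both or neither hold more CG than the class medians over 300 bases given below, which are 5 and 3.

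H2A.Z and macroH2A2 lay at largely separate gene starts. Of 16457 protein-coding genes, 9575 (58.2%) had H2A.Z at the start, 871 (5.29%) had macroH2A2 and 146 (0.887%, interval 0.750 to 1.04%) had both. H2A.Z alone was at 9429 starts (57.3%), macroH2A2 alone at 725 (4.41%) and neither at 6157 (37.4%). MacroH2A2 was at 1.52% of the starts with H2A.Z and at 10.5% of the 6882 other starts. At 0h those shares were 1.39% and 6.07%, and at 24h 2.95% and 13.7%. The direction was thus the same without doxycycline.

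**Figure D1:**
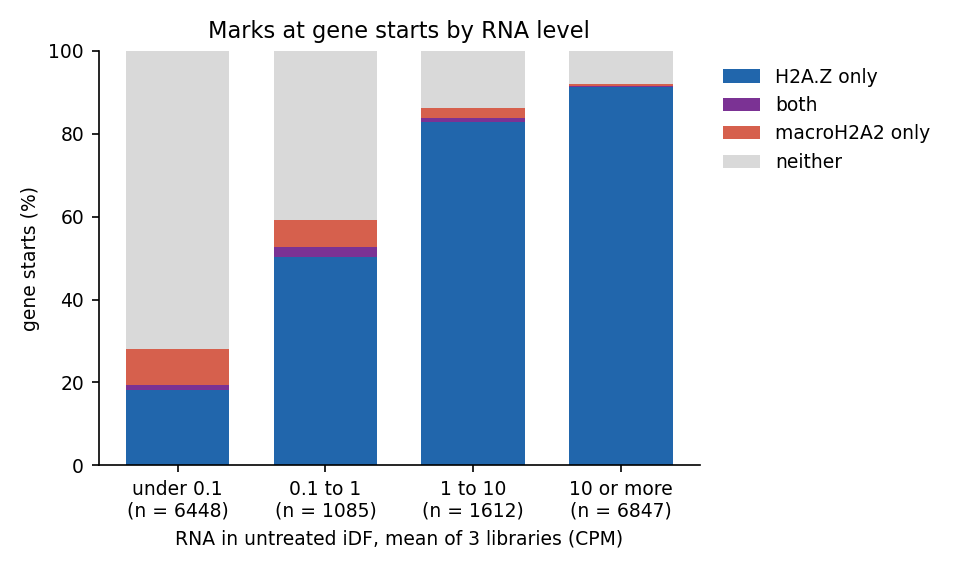
Share of gene starts (percent) with H2A.Z only, macroH2A2 only, both or neither, by RNA level at 0h in CPM, the library's counts scaled to a common total. H2A.Z alone rises from 18.1% of starts under 0.1 CPM to 91.4% at 10 CPM or more, and macroH2A2 alone falls from 8.76% to 0.438%.

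RNA levels of the immortalized line at 0h were joined by gene symbol for 15992 genes, 314 of them through an older symbol. They are CPM, not divided by gene length, and serve only to sort genes into broad classes. At 10 CPM or more, 6255 of 6847 starts had H2A.Z alone (91.4%), 30 had macroH2A2 alone (0.438%) and 14 had both (0.204%). Under 0.1 CPM, 1165 of 6448 starts had H2A.Z alone (18.1%), 565 had macroH2A2 alone (8.76%) and 80 had both (1.24%). Neither variant was at 71.9% of these silent starts, so lack of RNA went mostly with lack of both. The median over genes was 26.8 CPM for starts with H2A.Z alone, with 26.9, 26.7 and 26.7 CPM in the 3 libraries. It was 0 for macroH2A2 alone, 0 for neither and 0.0300 CPM for both. Starts with both variants were thus close to silent in the median, as were those with macroH2A2 alone.

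The RNA of the immortalized line was set against its label as fibroblasts through markers with a start analysed here. Of 15 fibroblast markers 9 had one, and 8 of these were at 10 CPM or more. In the longer list of fibroblast identity genes used below, 11 of 18 were at that level and 4 were under 0.1 CPM. Other markers with a start were of keratinocytes (4), melanocytes or Schwann cells (3), endothelial or mural cells (5), macrophages (4) and muscle or adipocytes (7). Of these only 1, an endothelial or mural one, reached 10 CPM. H2A.Z in the primary cells was at the starts of 7 of the 9 fibroblast markers, 4 of the 5 endothelial or mural ones, 1 of the melanocyte or Schwann ones, 1 of the macrophage ones and 0 of the keratinocyte and the muscle or adipocyte ones. MacroH2A2 was at 1 fibroblast, 1 keratinocyte and 1 macrophage marker start. No RNA of the primary cells was used, so their makeup was not tested.

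The gap between starts with and without H2A.Z was seen within each RNA class. Under 0.1 CPM, macroH2A2 was at 6.43% of H2A.Z starts and 10.9% of the others. From 0.1 to 1 CPM the shares were 4.55% and 13.6%, and from 1 to 10 CPM they were 1.11% and 14.9%. At 10 CPM or more they were 0.223% and 5.19%. The narrowest gap was among silent genes.

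Promoters with H2A.Z alone were rich in CpG, and those of the other classes were not in the median over all genes. Over the 300 bases from 250 before to 50 after the start, the median GC content was 61.3% with H2A.Z alone, 48.7% with macroH2A2 alone, 50% with both and 49% with neither. The ratio of observed to expected CpG had medians of 0.778, 0.216, 0.275 and 0.214 in that order, and the number of CpG medians of 21, 4, 5 and 3. Promoters with 10 or more CpG were 86.1%, 13.4%, 24.7% and 22.6% of the classes. Among genes at 10 CPM or more, the 548 promoters with neither had a median of 18 CpG, and 65.3% had 10 or more. With H2A.Z alone these were 23 and 93.8%. H2A.Z was at 556 of 4627 starts with 0 to 4 CpG and at 5390 of 6148 (87.7%) with 20 or more, and macroH2A2 was at 509 and 43 of them. Among genes under 0.1 CPM, H2A.Z was at 323 of 3757 and at 362 of 698 (51.9%), and macroH2A2 at 10.4% and 4.58%.

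At promoters of lowest CpG content H2A.Z starts did not have the lower macroH2A2 share. With 0 to 4 CpG, macroH2A2 was at 12.4% of the 556 H2A.Z starts and 10.8% of the 4071 others, the opposite order to all starts. With 5 to 9 CpG the shares were 4.76% and 14.2%, and with 20 or more they were 0.260% and 3.83%. Of the 0 to 4 CpG promoters of genes under 0.1 CPM, the shares were 11.5% and 10.3%.

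The share with macroH2A2 differed with the score of the H2A.Z region at the start. This is a whole number the authors gave each region and whose reference is not stated. RNA and promoter GC content differed with the score as well. Scores of 1, 2 and 3 to 5 had median RNA of 0, 3.37 and 29.9 CPM and median GC of 48.7%, 58.7% and 62%. Whether the score matters apart from RNA and sequence was not tested. MacroH2A2 was at 9.61% of 385 starts with score 1 and 6.48% of 741 with score 2. It was at 1.08% of 4619 starts with score 3 to 5 and at 0.243% of 3286 with score 6 to 9, and at 3 of 544 (0.551%) with score 10 or more. Of the 146 starts with both, 85 had an H2A.Z score of 1 or 2, and 95 were covered over the whole window by both variants. Chromosomes 8, 15 and 17 held 48 of the 146 (32.9%), against 12.3% of all starts and 29.3% of the starts with macroH2A2. In the other lists macroH2A2 was also at 75 of the 146 at 0h, 93 at 6h and 109 at 24h.

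MacroH2A2 around active genes was one-sided. For genes at 10 CPM or more, macroH2A2 regions covered 26.9% of genes at 5 kb before the start, 0.655% at the start and 1.78% at 5 kb after it. For genes under 0.1 CPM the values were 16.7%, 10.0% and 15.4%. H2A.Z covered the start of 91.6% of the former and 19.3% of the latter. Over the stretch from 2 to 10 kb, genes at 10 CPM or more had a mean of 26.2% of bases in macroH2A2 before the start and 1.96% after it, and at 0h 17.8% and 1.60%. Where no other start lay within 5 kb these means were 32.6% and 2.02%. Of all 6847 genes at 10 CPM or more, 1849 (27.0%) had 50% or more of that stretch covered before the start and 117 (1.71%) after it. Genes under 0.1 CPM had similar means on both sides, 16.0% and 15.2%.

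**Figure D2:**
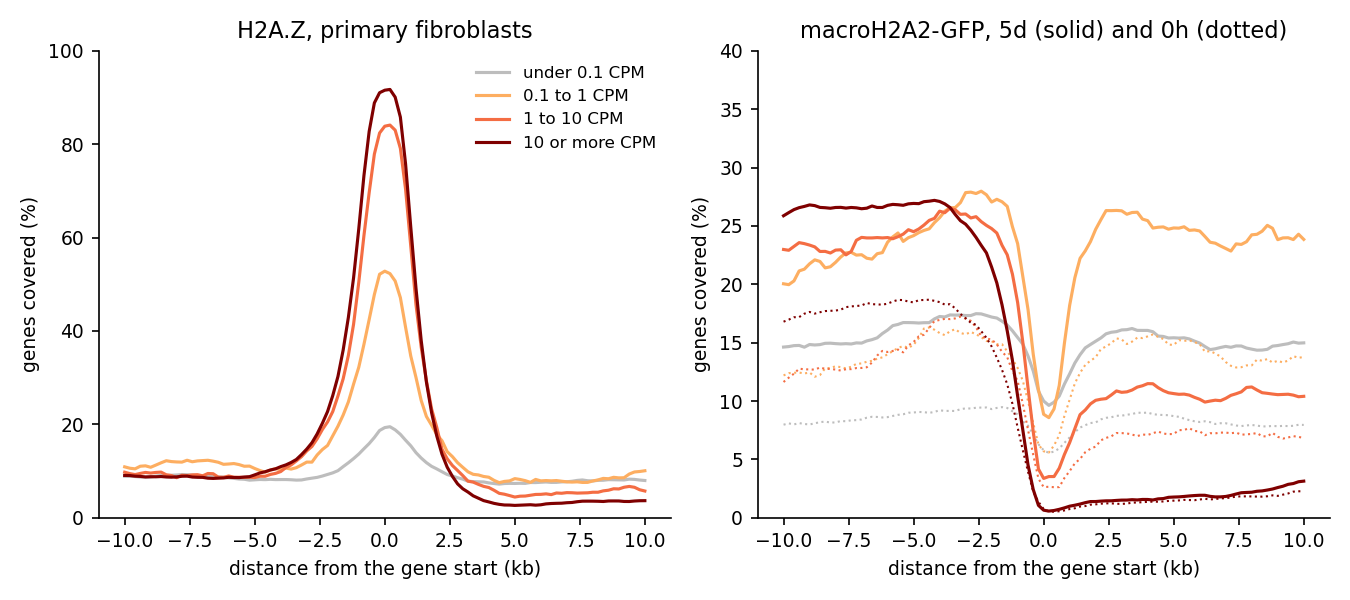
Percent of genes covered by H2A.Z or macroH2A2 regions by distance from the gene start (kb, along the gene), with lines for RNA classes and dotted lines for macroH2A2 at 0h. For genes at 10 CPM or more, macroH2A2 drops from 26.9% at 5 kb before the start to 0.655% at it and is 1.78% at 5 kb after it.

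Gene bodies were taken from 1 kb after the start to the end for genes of 3 kb or more. MacroH2A2 covered 50% or more of 915 of 13868 bodies (6.60%). Such bodies followed 281 of 8998 starts with H2A.Z (3.12%) and 634 of 4870 others (13.0%). The other starts had the higher share on all 18 chromosomes that had starts to compare. The order was the same at 0h (1.73% and 5.95%) and at 24h (4.51% and 15.9%), and it was the opposite at 6h (14.0% and 10.2%). In the 6h list the bodies of genes at 10 CPM or more were covered in 15.2% of cases, against 0.303% at 5 days.

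**Figure D3:**
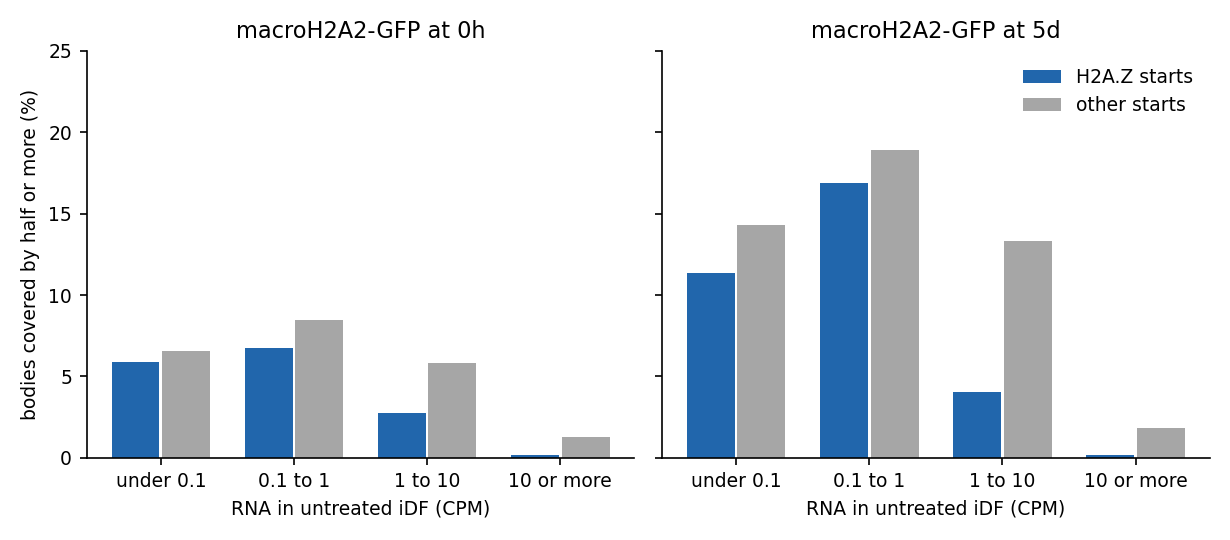
Percent of gene bodies with 50% or more of their bases in macroH2A2 regions, at 0h (left) and 5 days (right), for genes with H2A.Z at the start and others, by RNA class (CPM). At 5 days the shares under 0.1 CPM are 11.4% and 14.3%, and at 10 CPM or more they are 0.165% and 1.85%.

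Once genes were sorted by RNA, the gap in bodies was small among genes with little RNA. Under 0.1 CPM it was 11.4% with H2A.Z at the start and 14.3% without, and from 0.1 to 1 CPM 16.9% and 18.9%. From 1 to 10 CPM it was 4.03% and 13.3%. By start class, 2.48% of bodies behind H2A.Z alone were covered, 55.8% behind macroH2A2 alone, 47.3% behind both and 7.49% behind neither. At the level of bodies, any base of both variants was found in 2089 genes (15.1%), H2A.Z without macroH2A2 in 6104 (44.0%), macroH2A2 without H2A.Z in 1169 (8.43%) and none in 4506 (32.5%). Of the 318 bodies with 50% or more of their bases in H2A.Z, 29 (9.12%) also had 50% or more in macroH2A2, against 6.60% of all bodies. The order differed between RNA classes. Under 0.1 CPM, which held 202 of the 318, it was 19 (9.41%), against 13.6% of all bodies of that class. From 0.1 to 1 CPM it was 2 of 30, against 17.9%. From 1 to 10 CPM it was 2 of 20, against 5.54%, and at 10 CPM or more 1 of 31, against 0.303%.

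How often H2A.Z regions met macroH2A2 depended on place and score together. Of all H2A.Z regions, 11865 (27.2%, interval 26.8 to 27.6%) shared a base with a macroH2A2 region and 3802 (8.71%) lay wholly inside one. MacroH2A2 covered 16.1% of H2A.Z bases against 14.2% of the autosomes. Of H2A.Z regions at a gene start, 21.7% touched macroH2A2, as did 26.6% of those elsewhere in a gene and 30.5% of those outside genes. The share was 43.7% for regions of score 2 and 7.30% for those of score 10 or more, and regions at starts had the higher scores, with a median of 4 against 2 elsewhere in a gene and 1 outside genes. At equal score the order of starts and the rest of genes by touching changed. With score 1 the share was 30.0% at starts, 19.9% elsewhere in a gene and 20.6% outside genes, and with score 2 it was 45.2%, 38.8% and 46.1%. With score 3 it was 33.1% at starts and elsewhere in a gene and 51.5% outside genes, and with score 6 to 9 it was 9.40%, 16.2% and 33.3%. By touching, regions at starts thus had the lowest share only from score 4 on. A wider region touches more easily, and those at starts were wider, with medians of 6400, 5400 and 5600 bases at score 1. By bases in macroH2A2, regions at starts were lowest at low scores too. In the same order of places these shares were 11.9%, 12.8% and 12.7% at score 1. They were 25.7%, 29.1% and 34.9% at score 2, and 14.7%, 22.9% and 37.1% at score 3.

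At the centres of H2A.Z regions of score 3 or more, macroH2A2 was lower than beside them. At gene starts it covered 3.56% of centres, against 16.8% and 17.3% at 3 kb on either side. Outside genes it covered 29.6% of centres, 42.1% and 41.0% at 3 kb, and 24.7% and 24.8% at 50 kb. These H2A.Z regions outside genes thus sat in surroundings with more macroH2A2 than farther away, with a dip at the centre. At 0h the centre had 20.8% and the 3 kb points 28.4% and 28.1%. At 6h the centre had 43.8%, against 45.9% and 46.8% at 1 kb and 40.5% and 40.4% at 3 kb, a shallower and narrower dip.

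**Figure D4:**
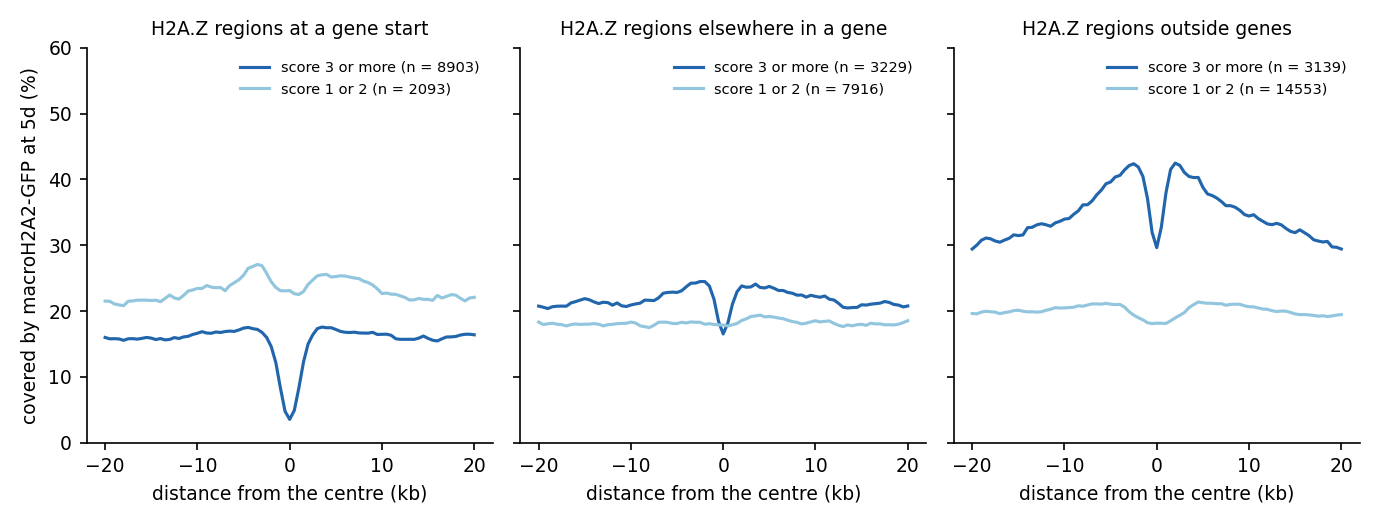
Percent of H2A.Z regions, split into score 3 or more and score 1 or 2, with macroH2A2 at 5 days by distance from the region's centre (kb), for regions at gene starts, elsewhere in genes and outside genes. With score 3 or more the centre is lower than 3 kb away in each panel, 3.56% against 16.8% at starts and 29.6% against 42.1% outside genes.

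Seen from macroH2A2, 11573 of 47942 regions (24.1%) held H2A.Z. The share rose with width from 13.5% under 2 kb to 86.4% (38 of 44) at 100 kb or more, while the share of bases in H2A.Z stayed between 8.45% and 9.23%. The 1 kb just outside the edges of macroH2A2 regions had 13.4% of its bases in H2A.Z and the 1 kb just inside 9.81%, against 7.79% of the autosomes. For H2A.Z regions of score 3 or more these were 5.71%, 2.92% and 1.87%.

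The counts of the gene lists are to be read against all genes, of which 58.2% had H2A.Z and 5.29% macroH2A2 at the start. At 10 CPM or more H2A.Z was at 91.6% of starts, and under 0.1 CPM at 19.3%. Housekeeping gene groups, nearly all of whose members were at 10 CPM or more, had H2A.Z at nearly all starts and almost no macroH2A2. H2A.Z was at 47 of 54 starts of cytosolic ribosomal proteins, at 49 of 49 of the nuclear respiratory chain, at 36 of 38 of DNA replication and mitosis and at 23 of 25 of the Polycomb group. MacroH2A2 covered 50% or more of 0 bodies in these 4 groups. The one start with macroH2A2 among them was that of Ndufb10, a subunit of complex I, at 73.6 ± 0.80 CPM (SD, n = 3). Cholesterol biosynthesis genes had H2A.Z at 12 of 14 starts, with macroH2A2 at 0 starts and in 0 bodies. The genes of H2A variants and their exchange factors had H2A.Z at 17 of 18 starts. Among them Macroh2a2 had H2A.Z over the whole start window, 46.6% of its body in macroH2A2 at 0h and 49.3% at 5 days. Its RNA in the 3 libraries at 0h was 10.7, 25.5 and 9.73 CPM, with the middle one high, in cells labelled as lacking the gene and carrying its transgene.

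**Figure D5:**
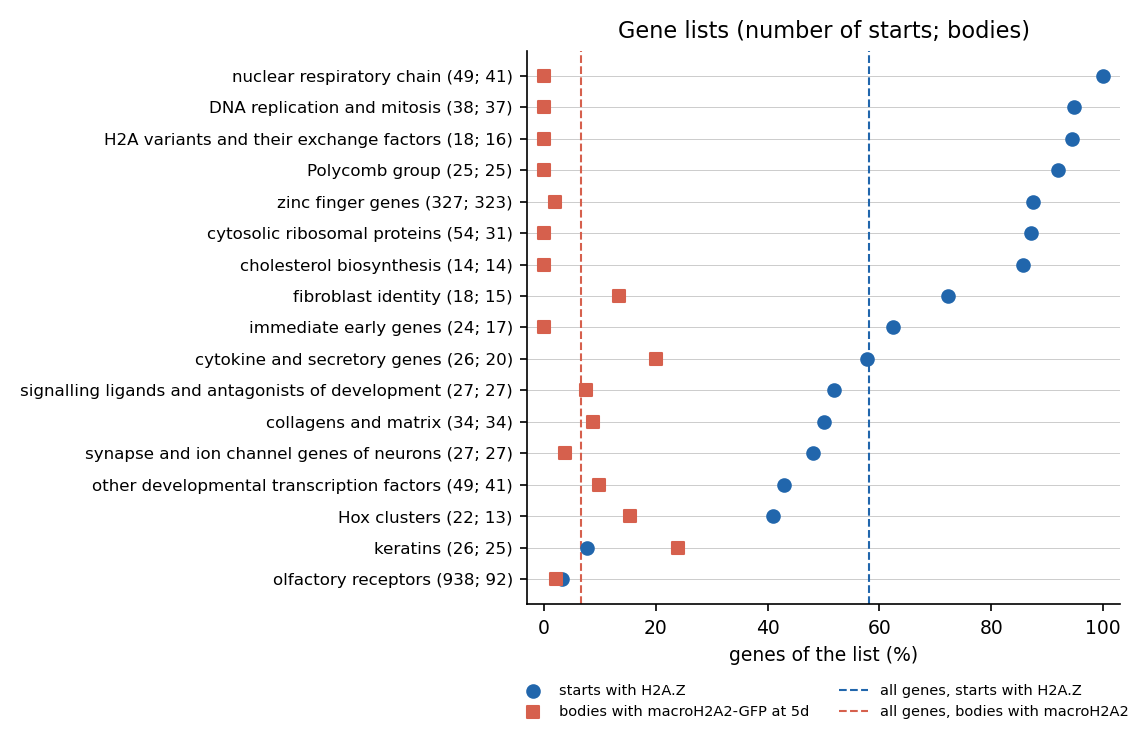
Percent of starts with H2A.Z (circles) and of bodies with 50% or more of their bases in macroH2A2 regions at 5 days (squares) for each gene list, with dashed lines at 58.2% and 6.60% for all genes. The respiratory chain has H2A.Z at 100% of starts and macroH2A2 in 0 of 41 bodies, and keratins have 7.69% and 24%.

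Genes of other tissues split in 2 ways. Keratins, the filaments of epithelia, had H2A.Z at 2 of 26 starts and macroH2A2 at 6, with 6 of 25 bodies (24%) covered. At 0h macroH2A2 was at 3 keratin starts and covered 3 bodies. Krt8 lies on chromosome 15 and Krt20 on chromosome 11. On these chromosomes macroH2A2 covered 31.2% and 18.5% of all bodies behind starts without H2A.Z, so the keratin share is near the local ones. Krt8 had no H2A.Z in its start window, which macroH2A2 covered fully in all 4 lists. Its body, however, had 58.7% of its bases in H2A.Z and 100% in macroH2A2 at 5 days. Olfactory receptors had H2A.Z at 30 of 938 starts (3.20%) and macroH2A2 at 36 (3.84%), the latter below the 5.29% of all starts. Of the 915 with RNA counts, 911 were under 0.1 CPM, with H2A.Z at 30 and macroH2A2 at 33 of those starts. Both are low for that class. Of all genes under 0.1 CPM, H2A.Z was at 19.3% of starts, macroH2A2 alone at 8.76% and both at 1.24%. Synapse and ion channel genes of neurons had H2A.Z at 13 of 27 starts, 10 of them in the 20 genes under 0.1 CPM, and macroH2A2 at 2 starts. Lsamp, a neuronal adhesion molecule with a body of 2196 kb, was at 0 CPM in all 3 libraries with H2A.Z over 86.3% of its start window and no macroH2A2 there. Zinc finger genes, which are not a list of other tissues, had H2A.Z at 286 of 327 starts and macroH2A2 at 10. Of the 324 with RNA counts, 155 were at 10 CPM or more, with H2A.Z at 145 of those starts. Another 46 were under 0.1 CPM, with H2A.Z at 25 of them, above the 19.3% of all such genes.

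Genes of fibroblasts and their signals were mixed. Collagens and matrix genes had H2A.Z at 17 of 34 starts and macroH2A2 at 4, so the first share is near that of all genes. Of the 24 at 10 CPM or more H2A.Z was at 14, below the 91.6% of all such genes. Postn, the matrix protein periostin, had both at its start at 9.95 ± 0.66 CPM (SD, n = 3), with macroH2A2 there at 5 days and not at 0h. Fibroblast identity genes had H2A.Z at 13 of 18 starts and macroH2A2 at 3. Dpt, the matrix protein dermatopontin, had both, with macroH2A2 over its start in every list from 0h on. Cytokine and secretory genes had H2A.Z at 15 of 26 starts (57.7%), near all genes, and macroH2A2 at 6 (23.1%). Of these, Il33, an alarmin of the interleukin-1 family, had macroH2A2 alone, with 49.7% of its body covered at 0h and 87.3% at 5 days. Cxcl2, a neutrophil chemokine, had both at its start with 0 CPM, and macroH2A2 was not there at 0h. Hox genes had H2A.Z at 9 of 22 starts and macroH2A2 at 1, that of Hoxd11. Hoxd13, a limb and genital patterning gene, had neither at the start and 100% of its body in macroH2A2 in all 4 lists. Other developmental transcription factors had H2A.Z at 21 of 49 starts and macroH2A2 at 2, and of the 31 under 0.1 CPM H2A.Z was at 6, about the 19.3% of all such genes. Signalling ligands and antagonists of development had H2A.Z at 14 of 27 starts, near the share of all genes, and macroH2A2 at 3. Immediate early genes, which respond to growth signals, had H2A.Z at 15 of 24 starts and macroH2A2 at 1, that of Maff, a small Maf factor. Both are near the shares of all genes. Of the 18 at 10 CPM or more, however, H2A.Z was at 10, below the 91.6% of all such genes. The lists share some members, among them Postn and Mmp13.

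Genes with both variants at the start differed widely in their bodies. MacroH2A2 covered 50% or more in 61 of 129 and 80% or more in 30, and the first genes named here are those with the highest coverage. Hsf2bp, at chromosome 17 from 31944769 to 32034895, had its whole start window in both, 15.8% of its body in H2A.Z and 100% in macroH2A2, at 0h as at 5 days. Its RNA was 0.144, 0.0918 and 0.0602 CPM in the 3 libraries. Crispld2 on chromosome 8, from 119992438 to 120052794, had 79.9% of its window in H2A.Z and 100% in macroH2A2 at 5.29 ± 0.67 CPM (SD, n = 3). Slc26a8, an anion transporter of sperm, had macroH2A2 over its start at 6h, 24h and 5 days and not at 0h, where its body was already covered over 94.9%. Zfp105, a zinc finger gene at 0 CPM, went from 51.2% of its body at 0h to 100% at 5 days with an H2A.Z score of 10. Of the 14 such genes at 10 CPM or more, Spp1, the secreted phosphoprotein osteopontin, stood highest with 586 ± 7.05 CPM (SD, n = 3) and 49.6% of its body covered. None of these genes with a body to measure reached 50%, and Clcn7, Adam19, Mrgbp and Maff were at 0%.

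H2A.Z alone at the start with no macroH2A2 in the body was found in 7552 of 8869 genes, 7470 of them with RNA counts, and these included many abundant RNAs. Eef2 had 3148, 3250 and 3266 CPM, 86.9% of its start window in H2A.Z and no macroH2A2 in window or body in any list. Col1a2, a chain of type I collagen, had 1770 ± 28.0 CPM (SD, n = 3), with H2A.Z over the whole window and no macroH2A2. Some genes with abundant RNA in the immortalized line had no H2A.Z at the start, as defined here, in the primary cells. RNA and H2A.Z were not measured in the same cells, so whether such RNA depends on H2A.Z was not tested. Eef1a1 had 5500 ± 234 CPM (SD, n = 3) with 22.4% of its window in H2A.Z, and an H2A.Z region of score 9 reached that window. Vim had 4559 ± 36.2 CPM (SD, n = 3) with no H2A.Z in its window.

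MacroH2A2 alone at the start and over 80% or more of the body was found in 145 genes. Of the 143 with RNA counts, 120 were under 0.1 CPM, and Cubn was the 1 at 10 CPM or more. The bodies of these 143 were covered over a mean of 63.2% at 0h and 93.9% at 5 days. Cubn, on chromosome 2 from 13276338 to 13491876, had 13.9, 13.4 and 14.4 CPM in the 3 libraries and macroH2A2 over 82.2% of its body at 0h and 84.1% at 5 days. Itgb6 was at 0 CPM in each, with 67.3% and 93.2% of its body covered.

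A last set, 71 of 8869 genes, had H2A.Z alone at the start and macroH2A2 over 80% or more of the body. Of the 69 with RNA counts, 29 were under 0.1 CPM and 4 at 10 CPM or more, with a median of 0.200 CPM. Their bodies were covered over a mean of 65.5% at 0h and 91.8% at 5 days. The genes named here are among those with the most RNA, so they are not typical of the set. Cyp1b1, a cytochrome P450 of steroid and xenobiotic metabolism, had H2A.Z over its whole window, no macroH2A2 there in any list and 85.1% of its body covered. Its RNA was 41.2, 41.0 and 43.6 CPM. H2-K1, a class I histocompatibility antigen, had 89.6% of its body covered in every list at 26.8 ± 0.42 CPM (SD, n = 3), and it shares sequence with other class I genes, so its counts are uncertain. Areg, the growth factor amphiregulin, had 100% of its body covered at 0h and 97.4% at 5 days. Hgf, hepatocyte growth factor, had 74.6% and 90.9%. At 6h, macroH2A2 also lay over 60.5% of the start window of Hgf.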

How the data were processed

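Regions of H2A.Z and macroH2A2 were used as the authors deposited them, with 1 library a list. Per the submitters' processing notes, reads were aligned with Bowtie 1.1.2 to GRCm38 and regions called with SICER 1.1, in windows 200 bases wide joined over gaps up to 800 bases per the file names. The deposited lists give each region a whole-number score, whose reference is not stated, and a running number, which was not used. RNA was deposited by the authors as raw counts per gene from STAR 2.5.2b per the submitters' processing notes. The strand-specific counts, 32684257 to 34629331 per 0h library over genes, were scaled to CPM, each library's total over genes being set equal. Nothing in the labels says that the 3 RNA libraries came from separate cultures, so their SD may be technical.

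Starts were the first RefSeq promoter of each gene (GRCm38.p6). Of 20665 autosomal protein-coding genes, 4208 have no entry there, 511 of them on chromosome 18, and were not analysed here. Of the 16457 others, 90.0% start within 1 kb of the gene's annotated 5′ end. RNA was matched by current symbol for 15678 genes. A further 314 were matched through an older RefSeq symbol, a step added after results with current symbols alone had been seen.

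Genes are named by rule: per start class, the 10 (5 for neither) highest in body coverage, RNA or length, and up to 3 members of each of 18 gene lists per class. One list, the clustered protocadherins, had no analysed member. Spp1 was picked after its values were seen. Members and lists were chosen with earlier results of these data known. No test was made. Alternatives covered the windows, thresholds, scores, caller settings, bases outside 0h regions and RNA settings. Coverage functions were tested on simulated regions. Python 3.11.15, numpy 2.4.6, pandas 2.3.3, scipy 1.17.1 and matplotlib 3.10.9 were used.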

Additional observations from a re-analysis of the deposited data

How the results depend on the processing

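Of 54 alternatives for counts, 23 stayed within 1.5 times the value reported and 31 did not. Starts without H2A.Z kept the higher macroH2A2 share in 10 of 10 settings for starts, and their bodies in 7 of 7. Starts with macroH2A2 numbered 1586 with any base of the window, 399 with 5 day regions of score above the median, 2578 with the wider window and gap and 454 over bases outside 0h regions. Starts with both numbered 564, 65, 935 and 68 in that order, 95 with the whole window and 61 with H2A.Z regions of higher score. Starts with H2A.Z numbered 6367 of the 12274 with no other start within 5 kb.

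Covered bodies numbered 1856 at a 20% minimum, 341 at 80%, 295 with regions of higher score, 1849 with the wider window and gap and 232 outside 0h regions. With H2A.Z at the start these were 650, 101, 80, 616 and 62, and at other starts 1206, 240, 215, 1233 and 170. Other starts gave 401 for genes of 10 kb or more. Without chromosomes 8, 15 and 17, an alternative chosen after seeing the data, H2A.Z starts gave 186. H2A.Z regions touching macroH2A2 numbered 7245 when 50% of the region had to overlap, 4495 among H2A.Z regions of higher score and 6486 with 5 day regions of higher score. The cause of these shifts beyond the stricter or looser setting was not tested.

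Median RNA with H2A.Z alone was 26.6 to 26.9 CPM when 1 replicate was left out, 26.3 CPM unstranded and 38.8 CPM over genes of 1 CPM or more. With macroH2A2 alone it was 0.0103 CPM unstranded and 6.93 CPM over genes of 1 CPM or more. With both it was 0.0297 to 0.0304 CPM when 1 replicate was left out, 0.0514 CPM unstranded and 9.95 CPM over genes of 1 CPM or more, and with neither 34.1 CPM over those. Matching RNA by current symbols only, the matching used first and replaced after its results were seen, gave 27.2 CPM with H2A.Z alone and 0.0391 CPM with both. The share of starts with H2A.Z was 91.6% at 10 CPM or more and 19.3% under 0.1 CPM with either matching, and 1 of the 45 genes named by the start rules, Cibar2, was matched by an older symbol. Promoters with 10 or more CpG were 84.0% with H2A.Z alone, 10.7% with macroH2A2 alone and 20.0% with neither where no other start lay within 5 kb. No paired analysis was possible because each region list is 1 library and no test was made.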
